A study of Mus musculus with 24 samples.

Results

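Ionotropic receptors are ion channels that open when a transmitter binds. AMPA, kainate and NMDA receptors are opened by glutamate and excite neurons, while GABA-A and glycine receptors pass chloride and mostly inhibit them. Each channel is assembled from several subunits encoded by separate genes, and the choice of subunit sets its conductance, kinetics and place on the neuron. Excess glutamate and calcium entry through NMDA and AMPA receptors are a known route of neuronal injury in ischaemic brain, which makes the transcript level of the subunits a question of its own early after an arterial occlusion.

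The rule picks genes by symbol and receptor class and uses no measured value, though the list was drawn up with earlier results of these data in view. Of 32 listed genes, 31 had a probe set, out of 19505 named genes in all, and each had 1 probe set. They comprise 16 glutamate receptor genes (4 AMPA, 5 kainate, 6 NMDA and 1 delta) and 15 inhibitory receptor genes (11 GABA-A and 4 glycine). Grin1, the obligatory NMDA subunit, is not analysed here.

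The 24 whole-transcript Affymetrix arrays hold RNA of each hemisphere of 12 mice. The animals were C57Bl/6j males, 8 to 10 weeks old. In 8 mice a filament blocked the middle cerebral artery of one side (MCAO) for 90 min, 30 min of reperfusion followed, and brains were taken 2 h after onset. The other 4 mice had sham surgery, and all were perfused with saline. The groups are therefore MCAO ipsilateral, MCAO contralateral, sham ipsilateral and sham contralateral. Each array holds RNA of a hemisphere, so tissue outside the territory of the artery may be included. Fewer cells of a type cannot be told apart from less RNA per cell.

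Both arrays of MCAO mouse 3 and both of sham mouse 1 stood apart. Their median correlation with the other arrays was 0.330 to 0.551, against 0.981 to 0.989 for the remaining 20, and at most 1 of the 31 subunit genes exceeded background on any of them. Values below therefore rest on 20 arrays of 7 MCAO and 3 sham mice, with results on 24 arrays beside the counts. On the 20 arrays all 10 measured pan-neuronal markers exceeded background everywhere, 6 of 7 striatal markers did, and 6 of 6 brainstem and spinal markers exceeded it nowhere. Background, taken per array as the 95th percentile over negative control probe sets, lay between 5.17 and 5.74 log2 units. Precision is limited by the number of arrays.

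No subunit gene passed the threshold of an adjusted p of 0.05 in any comparison (limma, adjusted over all 22206 probe sets). Between the hemispheres of MCAO mice 0 of 31 subunit genes were called, where 0.135% of all probe sets were. The shares of all probe sets called were 0% between the hemispheres of sham mice, 0% for the difference between those side differences, 0.149% between ipsilateral hemispheres, MCAO against sham, and 0% between their contralateral hemispheres, with 0 of 31 subunit genes in each. With so few probe sets called at all, a count of 0 is close to the background and is no result particular to these genes. By direction, 0.126% of probe sets were higher and 0.00901% lower in the ipsilateral hemisphere of MCAO mice, and 0.126% were higher and 0.0225% lower in MCAO than in sham ipsilateral hemispheres. With all 24 arrays the count was again 0 of 31 in each of the 5 comparisons, and the share of probe sets called was 0.0856%, 0%, 0%, 0.0045% and 0% in the same order.

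At an unadjusted p under 0.05, 3 of 31 subunit genes passed between the hemispheres of MCAO mice, against 7.1% of all probe sets. The counts in the other comparisons, in that order, were 3, 6, 4 and 1 of 31, against 5.49%, 5.91%, 7.48% and 4.59% of all probe sets. Of the 23 subunit genes with mean signal above mean background, 0, 1, 2, 0 and 1 passed in the same 5 comparisons. The other passing genes had mean signals at or under background. On 24 arrays the counts were 1, 1, 4, 0 and 0 of 31, against 4.13%, 6.26%, 5.12%, 1.01% and 0.365%. The arrays did register occlusion in other genes. The immediate early genes Fos, Npas4 and Arc, which neurons transcribe within minutes of strong activity, were higher in the ipsilateral than the contralateral hemisphere of MCAO mice by 2.13 ± 0.23, 2.70 ± 0.41 and 1.21 ± 0.17 log2 units (SE, adjusted p = 0.00237, 0.0211 and 0.0123). The interaction of side and surgery is less well measured, and there Fos reached 2.03 ± 0.42 with an adjusted p of 0.291.

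The mean signal of 23 subunit genes lay above the mean background of 5.49, and 21 of these exceeded background on every array. For those 23 the intervals bound the size of a change, more tightly in some comparisons than in others. All 23 intervals for the side difference in MCAO mice lay within 0.5 log2 units of 0, the widest limits being -0.42 and 0.33. In the comparison of ipsilateral hemispheres of MCAO and sham mice, 20 of 23 intervals lay within 0.5, and in that of contralateral hemispheres 15 of 23 did. The side difference in sham mice had 18 of 23 within it, and the interaction of side and surgery 14 of 23, with limits as far out as -0.63 and 0.94. The remaining 8 genes, Grik1, Grin2d, Grin3b, Gabra6, Gabrg1, Gabre, Glra1 and Glra3, had mean signals at or under background. For these, signals, the direction in single mice and p-values are given, but no size of a difference, since a signal at background gives only an upper bound.

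**Figure D1:**
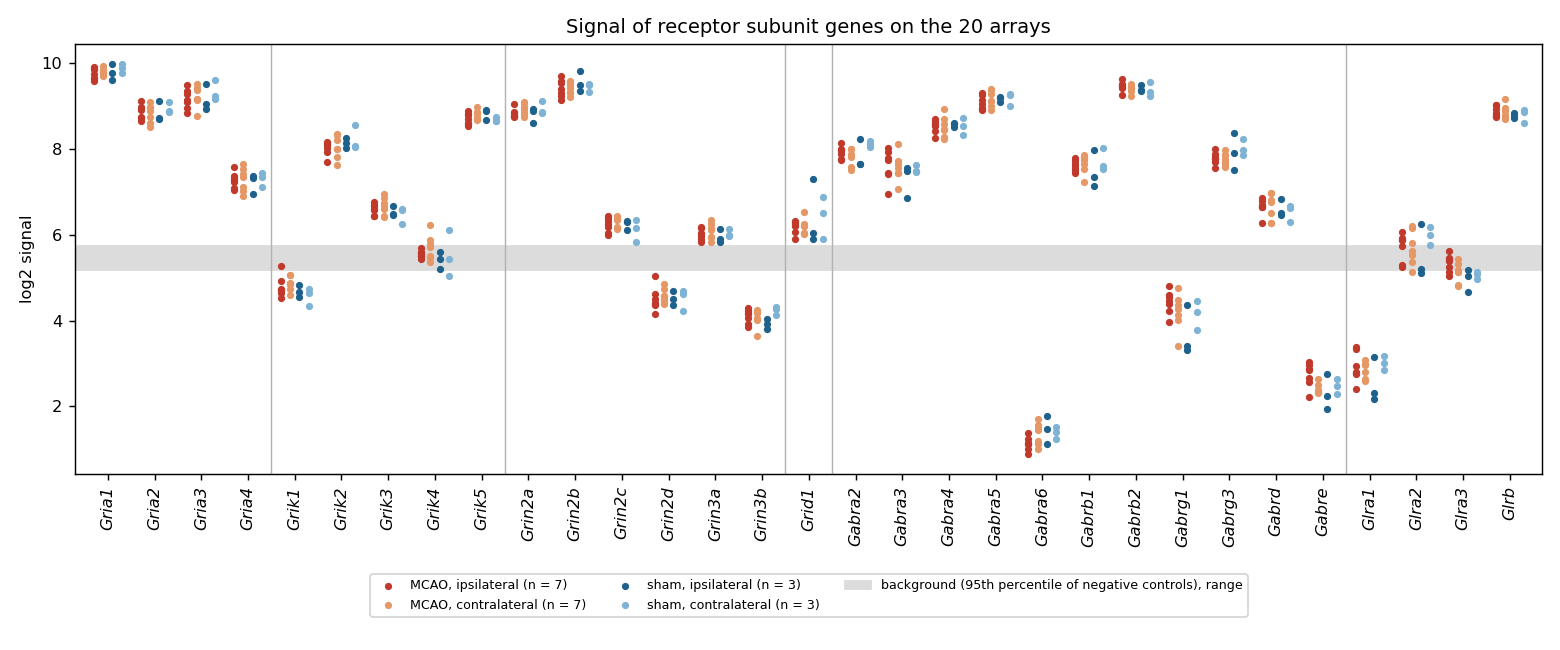
Log2 signal (vertical axis) of each of the 31 subunit genes on the 20 arrays, 1 point per array, with MCAO ipsilateral (n = 7), MCAO contralateral (n = 7), sham ipsilateral (n = 3) and sham contralateral (n = 3) from left to right within each gene. Grey lines part the receptor classes and the grey band is the range of background, 5.17 to 5.74. The groups overlap for most genes, and heights of different genes are not comparable because probe sets differ in brightness.

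AMPA receptor subunits carry fast excitatory transmission. Gria1, Gria2, Gria3 and Gria4 encode the pore-forming subunits, and the edited Gria2 subunit keeps calcium out of the channel. Their side differences in MCAO mice had a median of -0.03 log2 units, 1 positive and 3 negative, against -0.00 over all probe sets. The 4 intervals reached from -0.23 to 0.27.

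Gria3 had the smallest p of the class between hemispheres of MCAO mice. Its lowest, median and highest signals were 8.84, 9.14 and 9.48 in the ipsilateral hemispheres of MCAO mice and 8.77, 9.17 and 9.51 in their contralateral hemispheres. Sham mice 2, 3 and 4 had 9.51, 8.93 and 9.05 ipsilaterally and 9.61, 9.16 and 9.24 contralaterally. All 4 groups overlapped. The side difference was -0.06 ± 0.07 in MCAO mice (SE, adjusted p = 0.938), with 3 mice higher and 4 lower ipsilaterally. All 3 sham mice were lower ipsilaterally, and the side differences of MCAO and sham mice did not differ beyond their spread (0.12 ± 0.13, adjusted p = 0.952; exact two-sided permutation p = 0.142).

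Gria2, the calcium gate of the class, had the smallest p in the contralateral comparison. Its contralateral signals ran from 8.51 over a median of 8.89 to 9.10 in MCAO mice and were 8.85, 9.09 and 8.89 in sham mice 2, 3 and 4. These ranges overlapped, with a difference of -0.12 ± 0.14 (SE, adjusted p = 1.00). Ipsilaterally Gria2 averaged 8.87 ± 0.17 in MCAO mice (SD, n = 7) and 8.84 ± 0.24 in sham mice (SD, n = 3). Gria4 led the ipsilateral comparison at 0.06 ± 0.14 (SE, adjusted p = 0.949), with signals of 7.05, 7.27 and 7.57 as lowest, median and highest in MCAO mice against 7.36, 6.95 and 7.31 in sham mice 2, 3 and 4. Gria1, the main partner of Gria2 in forebrain neurons, averaged 9.74 ± 0.14 in the ipsilateral hemispheres of MCAO mice (SD, n = 7) and 9.80 ± 0.08 in their contralateral hemispheres (SD, n = 7).

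Kainate receptor subunits act before and after the synapse as modulators of release and excitability. Grik1, Grik2 and Grik3 form channels alone, and Grik4 and Grik5 join them as high-affinity partners. The 4 kainate genes above background had side differences in MCAO mice with a median of -0.09 log2 units, all 4 negative, and limits from -0.42 to 0.18. None of them passed the unadjusted threshold.

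Grik5 had the smallest p of these between hemispheres. Its signals were 8.54, 8.69 and 8.88 as lowest, median and highest in the ipsilateral hemispheres of MCAO mice and 8.67, 8.83 and 8.97 in the contralateral ones. Those of sham mice 2, 3 and 4 were 8.89, 8.87 and 8.67 ipsilaterally and 8.65, 8.75 and 8.64 contralaterally. The ipsilateral hemisphere was lower in 5 of 7 MCAO mice and higher in 3 of 3 sham mice, with overlapping side differences. The side difference was -0.10 ± 0.08 in MCAO mice (SE, adjusted p = 0.868). Set against the side difference in sham mice it differed by -0.23 ± 0.14 (SE, adjusted p = 0.877). The exact two-sided permutation test over 120 regroupings of the 10 mice gave p = 0.0417 for Grik5, unadjusted and 1 of 31 such tests, where the smallest possible is 0.00833.

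Grik4 was close to background and exceeded it on 14 of 20 arrays. In the ipsilateral hemispheres it read 5.44, 5.55 and 5.68 as lowest, median and highest in MCAO mice, of which 6 of 7 arrays passed background, and 5.42, 5.21 and 5.60 in sham mice 2, 3 and 4, of which 1 of 3 did. The ranges overlapped (0.14 ± 0.12, SE, adjusted p = 0.850). Background was set per array, at 5.71, 5.57 and 5.45 on the ipsilateral arrays of sham mice 2, 3 and 4. On those of MCAO mice it ran from 5.23 to 5.63, so the counts past background also depend on this cutoff. Grik2, the commonest forebrain kainate subunit, averaged 8.02 ± 0.16 ipsilaterally and 8.04 ± 0.26 contralaterally in MCAO mice (SD, n = 7 each). Grik3 averaged 6.60 ± 0.12 and 6.67 ± 0.20 in the same hemispheres (SD, n = 7 each). Grik1 exceeded background on 1 of 20 arrays. Its contralateral signals spanned 4.59 to 5.05 with a median of 4.86 in MCAO mice against 4.34, 4.73 and 4.65 in sham mice 2, 3 and 4 (adjusted p = 1.00).

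NMDA receptors pass calcium once glutamate is bound and the membrane is depolarised. Grin2a to Grin2d encode the glutamate-binding subunits, of which Grin2a and Grin2b prevail in the adult forebrain, and Grin3a and Grin3b encode glycine-binding subunits that lower calcium flow. The 4 NMDA genes above background, Grin2a, Grin2b, Grin2c and Grin3a, had a median side difference of -0.08 log2 units in MCAO mice, 0 positive and 4 negative. Their intervals reached from -0.31 to 0.20.

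Grin2a read 8.74, 8.78 and 9.03 as lowest, median and highest in the ipsilateral hemispheres of MCAO mice and 8.75, 8.93 and 9.09 in their contralateral hemispheres. The signals of sham mice 2, 3 and 4 were 8.61, 8.89 and 8.93 ipsilaterally and 8.83, 8.85 and 9.11 contralaterally. It was lower ipsilaterally in 6 of 7 MCAO mice and in 2 of 3 sham mice. The side difference was -0.10 ± 0.08 in MCAO mice (SE, adjusted p = 0.893) and -0.12 ± 0.13 in sham mice (SE, adjusted p = 0.999). Grin2b averaged 9.41 ± 0.20 ipsilaterally and 9.41 ± 0.14 contralaterally in MCAO mice (SD, n = 7 each), with a side difference of -0.01 and a 95% interval of -0.21 to 0.20.

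Grin2c, a subunit of cerebellar granule cells, astrocytes and some interneurons, led the contralateral comparison of the class. Its contralateral signals ran from 6.13 over 6.36 to 6.44 in MCAO mice and were 6.16, 5.82 and 6.34 in sham mice 2, 3 and 4, which overlapped (0.21 ± 0.14, SE, adjusted p = 1.00). Grin3a averaged 6.02 ± 0.13 ipsilaterally and 6.08 ± 0.18 contralaterally in MCAO mice (SD, n = 7 each). Grin2d and Grin3b exceeded background on 0 of 20 arrays. Grin2d read 4.15, 4.42 and 5.05 as lowest, median and highest in the ipsilateral hemispheres of MCAO mice and 4.39, 4.57 and 4.86 contralaterally, and in sham mice it spanned 4.37 to 4.69 ipsilaterally and 4.21 to 4.69 contralaterally. The ranges of Grin2d overlapped throughout. Grin3b read 3.86, 4.15 and 4.28 as lowest, median and highest in the ipsilateral hemispheres of MCAO mice and 3.63, 4.17 and 4.25 contralaterally. In sham mice 2, 3 and 4 it read 3.80, 3.92 and 4.03 ipsilaterally and 4.13, 4.31 and 4.26 contralaterally. The interaction of side and surgery had an adjusted p of 0.835 for Grin3b and an exact two-sided permutation p of 0.025, unadjusted, and the ipsilateral comparison an adjusted p of 0.795, on signals that are all below background.

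Grid1 encodes a delta subunit that belongs to the glutamate receptor family by sequence and links synapses through cerebellins. Its signals were 5.91, 6.23 and 6.32 as lowest, median and highest in the ipsilateral hemispheres of MCAO mice and 6.01, 6.20 and 6.54 contralaterally. In sham mice 2, 3 and 4 they were 7.30, 6.05 and 5.90 ipsilaterally and 6.87, 6.50 and 5.90 contralaterally. Sham mouse 2 was the highest of all on both sides, while the other sham mice lay within or near the range of the MCAO mice. The side difference in MCAO mice was 0.00 ± 0.11 (SE, adjusted p = 0.999), the ipsilateral difference between MCAO and sham mice was -0.23 ± 0.23 (SE, adjusted p = 0.877) and the contralateral one -0.24 ± 0.18 (SE, adjusted p = 1.00).

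**Figure D2:**
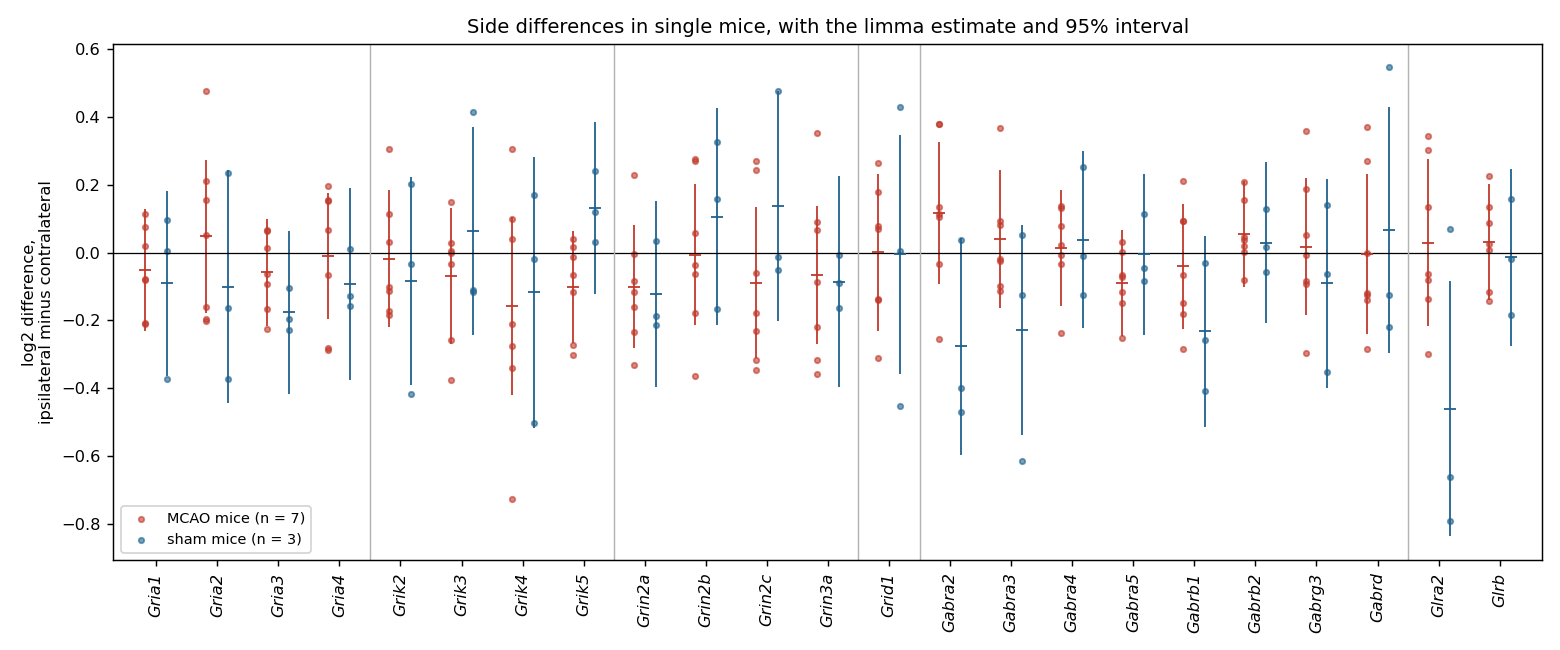
Side difference in log2 units, ipsilateral minus contralateral (vertical axis), of the 23 subunit genes with mean signal above background. Points are single mice, 7 MCAO (left, red) and 3 sham (right, blue); dashes and bars are limma estimates and 95% intervals. All 23 MCAO intervals stay within 0.5 of 0, and MCAO and sham points overlap for every gene.

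GABA-A receptors are pentamers of alpha, beta and a further kind of subunit (gamma, delta or epsilon), and they carry most fast inhibition in the forebrain. The 8 GABA-A genes above background had a median side difference of 0.01 log2 units in MCAO mice, 5 positive and 3 negative, with limits of -0.24 and 0.33. The alpha genes decide where a receptor sits and how it responds to benzodiazepines. Of these Gabra2 is mostly synaptic, Gabra5 is largely extrasynaptic in hippocampus, and Gabra4 pairs with the delta subunit Gabrd in receptors for tonic inhibition.

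Gabra2 gave the smallest p of the class between contralateral hemispheres. Its contralateral signals were 7.50, 7.86 and 8.00 as lowest, median and highest in MCAO mice and 8.19, 8.05 and 8.12 in sham mice 2, 3 and 4. Every contralateral MCAO value lay below every contralateral sham value. This was the only one of the 31 subunit genes without overlap between these groups, where 1.38% of all probe sets had none. Ipsilaterally 0 of 31 subunit genes were without overlap, against 2.38% of all probe sets, and for the side differences 0 of 31, against 2.02%. The difference was -0.32 ± 0.14 (SE, unadjusted p = 0.0355, adjusted p = 1.00), and with the 24 arrays it had the opposite sign, at 0.25.

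On the ipsilateral side Gabra2 read 7.74, 7.96 and 8.14 as lowest, median and highest in MCAO mice and 8.23, 7.66 and 7.65 in sham mice 2, 3 and 4. Here the groups overlapped and the difference was 0.07 ± 0.15 (SE, adjusted p = 0.943). Gabra2 was higher ipsilaterally in 5 of 7 MCAO mice and lower in 2 of 3 sham mice. The interaction was 0.39 ± 0.18 (SE, adjusted p = 0.826), with an exact two-sided permutation p of 0.05, unadjusted.

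The other alpha genes showed no side difference beyond their spread. In MCAO mice Gabra3 averaged 7.61 ± 0.37 ipsilaterally and 7.57 ± 0.32 contralaterally, Gabra4 8.53 ± 0.15 and 8.51 ± 0.24, and Gabra5 9.08 ± 0.16 and 9.17 ± 0.18 (SD, n = 7 each). Among the beta genes, which carry the GABA site together with alpha, Gabrb1 averaged 7.62 ± 0.13 ipsilaterally and 7.66 ± 0.22 contralaterally, and Gabrb2 9.46 ± 0.12 and 9.40 ± 0.09 (SD, n = 7 each). The interval of the side difference of Gabrb2 was -0.10 to 0.21, and the gene was higher ipsilaterally in 6 of 7 MCAO mice and 2 of 3 sham mice. The gamma gene Gabrg3 averaged 7.78 ± 0.14 ipsilaterally and 7.77 ± 0.14 contralaterally in MCAO mice, and the delta gene Gabrd 6.65 ± 0.18 and 6.66 ± 0.30 (SD, n = 7 each).

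Gabrg1, Gabre and Gabra6 exceeded background on 0 of 20 arrays, yet 2 of them held the smallest p-values of all subunit genes. Gabrg1, a gamma subunit of a few limbic and glial populations, read 3.97, 4.44 and 4.80 as lowest, median and highest in the ipsilateral hemispheres of MCAO mice and 3.41, 3.32 and 4.36 in those of sham mice 2, 3 and 4. The groups overlapped through sham mouse 4 (unadjusted p = 0.00481, adjusted p = 0.396). Its contralateral signals were 3.41, 4.26 and 4.75 in MCAO mice and 3.79, 4.19 and 4.45 in sham mice. Several marker lists, but not all, had mostly positive estimates in the ipsilateral comparison, with 0 called. Pan-neuronal markers were positive in 8 of 10 (median 0.08) and oligodendrocyte markers in 4 of 6 (0.12). Striatal markers were positive in 0 of 7 (-0.19) and cerebellar markers in 2 of 9 (-0.24). Microglial markers were positive in 4 of 5 (median 0.21, mean level 6.23 to 6.57 in MCAO and 5.99 to 6.37 in sham mice), endothelial markers in 5 of 6 (0.16, 6.75 to 6.92 and 6.51 to 6.73) and astrocyte markers in 6 of 7 (0.13, 7.89 to 8.22 and 7.87 to 7.94). Slopes of Gabrg1 on marker levels were fitted over the 10 mice with surgery in the fit, after the data were seen. The slope on endothelial markers was positive (limma, unadjusted p = 0.00548, adjusted p = 0.864). That on astrocyte markers was positive too (limma, unadjusted p = 0.308, adjusted p = 0.755). Both rest on Gabrg1 signals below background. Whether any of these lists accounts for the ipsilateral difference in Gabrg1 was not tested.

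Gabre, an epsilon subunit of hypothalamus and brainstem, read 2.23, 2.85 and 3.05 as lowest, median and highest in the ipsilateral hemispheres of MCAO mice and 2.32, 2.36 and 2.63 in their contralateral hemispheres. Sham mice 2, 3 and 4 read 2.75, 1.95 and 2.25 ipsilaterally and 2.64, 2.28 and 2.47 contralaterally. The ipsilateral signal was the higher one in 6 of 7 MCAO mice and 1 of 3 sham mice. The adjusted p was 0.479 between the hemispheres of MCAO mice and 0.783 for the interaction, whose exact two-sided permutation p was 0.025, unadjusted. Gabra6, the alpha subunit of cerebellar granule cells, stayed between 0.89 and 1.77 on all 20 arrays, lower ipsilaterally in 6 of 7 MCAO mice (adjusted p = 0.674).

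Of 9 cerebellar markers 2 exceeded background on all 20 arrays and 6 on none. Their mean was 4.17 to 4.52 in the ipsilateral and 4.19 to 4.53 in the contralateral hemispheres of MCAO mice. In sham mice it was 4.52 to 4.60 ipsilaterally and 4.16 to 4.36 contralaterally, with 8 of 9 markers positive and 0 called. This mean over the list lay under background in all groups, though 2 of the 9 markers did not. Oligodendrocyte markers, all above background, were positive in 0 of 6 for the sham side difference (median -0.13), with a mean of 8.31 to 8.41 ipsilaterally and 8.42 to 8.55 contralaterally. Microglial markers were positive in 5 of 5 (median 0.14), with 5.99 to 6.37 ipsilaterally and 5.99 to 6.14 contralaterally. None of these markers was called, and their part in the sham side differences of the subunit genes was not tested.

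Glycine receptors inhibit neurons in spinal cord and brainstem and, in the forebrain, act mainly outside synapses. Glrb, the beta subunit that anchors the receptor to gephyrin, is widely transcribed in forebrain, while the alpha genes Glra1, Glra2 and Glra3 are sparse there. Glrb averaged 8.87 ± 0.12 ipsilaterally and 8.84 ± 0.17 contralaterally in MCAO mice (SD, n = 7 each), and 8.77 ± 0.07 and 8.79 ± 0.16 in sham mice (SD, n = 3 each). Its side difference in MCAO mice was 0.03 with an interval of -0.14 to 0.20.

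Glra2, the alpha subunit of the immature brain, exceeded background on 14 of 20 arrays. It read 5.26, 5.87 and 6.07 as lowest, median and highest in the ipsilateral hemispheres of MCAO mice and 5.12, 5.62 and 6.21 contralaterally. In sham mice 2, 3 and 4 it read 6.26, 5.11 and 5.21 ipsilaterally and 6.19, 5.77 and 6.00 contralaterally. In sham mice 3 and 4 the ipsilateral signal was lower by more than in any MCAO mouse, while sham mouse 2 had nearly equal sides. The side difference was 0.03 ± 0.11 in MCAO mice (SE, adjusted p = 0.985) and -0.46 ± 0.17 in sham mice (SE, adjusted p = 0.827). The interaction of 0.49 ± 0.21 (SE, adjusted p = 0.795; exact two-sided permutation p = 0.0583, unadjusted) stood beside a side difference near 0 in MCAO mice and a negative one in sham mice.

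With background set per array, Glra3 exceeded it on 3 of 20 arrays, all of them ipsilateral hemispheres of MCAO mice. It read 5.04, 5.38 and 5.61 as lowest, median and highest there and 4.79, 5.12 and 5.43 in the contralateral hemispheres of those mice. In sham mice 2, 3 and 4 it read 4.67, 5.18 and 5.03 ipsilaterally and 4.97, 5.09 and 5.13 contralaterally. The ipsilateral signal was higher in 5 of 7 MCAO mice and 1 of 3 sham mice, and all groups overlapped. The adjusted p was 0.661 between the hemispheres of MCAO mice and 0.627 between ipsilateral hemispheres, MCAO against sham. Glra1, the adult spinal alpha subunit, exceeded background on 0 of 20 arrays. Contralaterally it read 2.59, 2.80 and 3.07 in MCAO mice and 3.18, 3.00 and 2.84 in sham mice 2, 3 and 4 (adjusted p = 1.00).

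**Figure D3:**
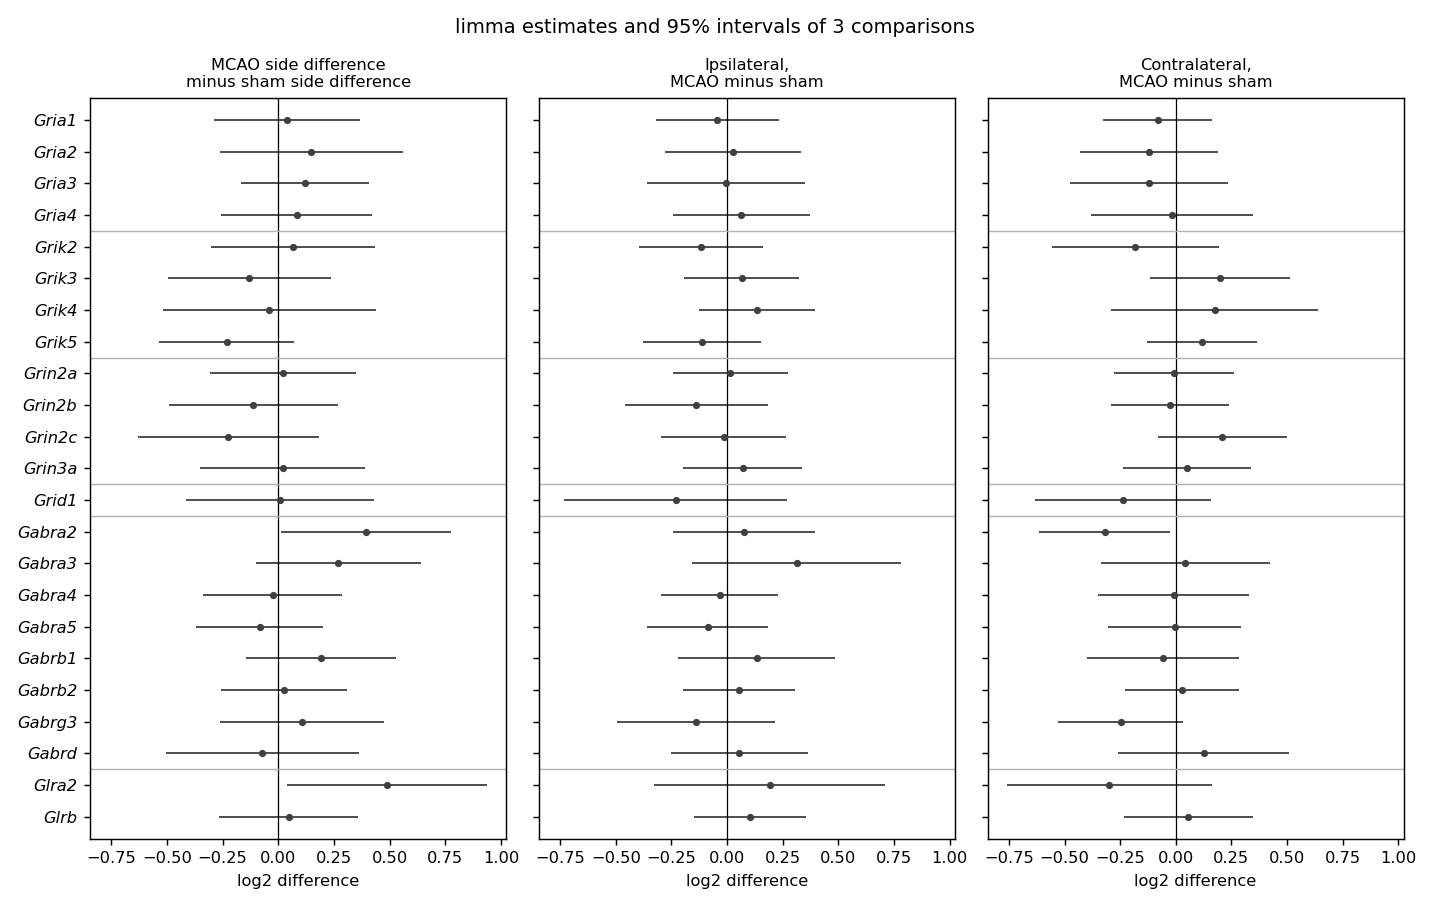
Estimates (points) and 95% intervals (bars) in log2 units (horizontal axes, same scale) from limma for the 23 subunit genes above background, in the interaction of side and surgery (left), between ipsilateral hemispheres, MCAO minus sham (middle), and between contralateral hemispheres, MCAO minus sham (right). The rows run from AMPA at the top to glycine receptors at the bottom. Gabra2 and Glra2 lie off 0 in the left panel, and Gabra2 in the right one, and neither passes the adjusted threshold.

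By receptor class, ipsilateral differences of MCAO against sham mice had medians of 0.01 log2 units for AMPA, -0.02 for kainate, -0.00 for NMDA, 0.05 for GABA-A and 0.15 for glycine receptor genes above background, and -0.23 for Grid1. The median over all probe sets was 0.01. In the contralateral hemispheres the medians were -0.10, 0.15, 0.02, -0.01, -0.12 and -0.24 in the same order. Striatal markers had lower estimates in MCAO than in sham mice on both sides, with 0 of 7 positive, medians of -0.19 ipsilaterally and -0.27 contralaterally, and 0 called. In the contralateral comparison astrocyte, endothelial and microglial markers were positive in 7 of 7, 6 of 6 and 5 of 5, with medians of 0.12, 0.19 and 0.25 and 0 called. Pan-neuronal markers were positive in 7 of 10 there and oligodendrocyte markers in 2 of 6, with medians of 0.05 and -0.10 and 0 called. The part of any of these lists in the class medians was not tested. On 24 arrays the medians over the 23 genes were 0.35 ipsilaterally and 0.47 contralaterally, against 0.03 and -0.01 on 20. For the side differences they were 0.11 in MCAO and 0.24 in sham mice, against -0.01 and -0.09 on 20, so these signs depend on the arrays used. The 4 arrays with compressed signal are 1 MCAO and 1 sham mouse, and so weigh more among the 4 sham mice.

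The genes that assemble, anchor or supply these receptors were not called either. From 5 lists chosen with earlier results known, 0 of 13 auxiliary subunits of glutamate receptors, 0 of 19 excitatory scaffold genes, 0 of 9 inhibitory postsynaptic genes, 0 of 14 transmitter synthesis and transport genes and 0 of 7 metabotropic receptor genes were called in any of the 5 comparisons. Their median side differences in MCAO mice were 0.02, 0.00, -0.02, 0.04 and -0.02 log2 units. Among the auxiliary subunits the smallest p belonged to Cacng5, a member of the transmembrane AMPA receptor regulatory proteins, above background on 1 of 20 arrays (adjusted p = 0.348), and to the AMPA receptor partner Shisa6, at -0.27 ± 0.09 (SE, adjusted p = 0.522).

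Homer1, a scaffold whose short form is induced by activity, stood at 0.19 ± 0.08 (SE, adjusted p = 0.674), and Homer2 at -0.16 ± 0.10 (SE, adjusted p = 0.827). Shisa7, which regulates GABA-A receptors, stood at -0.19 ± 0.08 (SE, adjusted p = 0.671), and Gabarap, which binds their gamma subunit, at 0.09 ± 0.08 (SE, adjusted p = 0.890). Gad1, the enzyme that makes GABA, stood at 0.21 ± 0.08 (SE, adjusted p = 0.576), and the vesicular glutamate transporter gene Slc17a8 was above background on 0 of 20 arrays (adjusted p = 0.818). Gabbr2, a subunit of the GABA-B receptor, and the metabotropic Grm4 stood at -0.16 ± 0.09 and -0.11 ± 0.09 (SE, adjusted p = 0.787 and 0.893). None of these values passed the threshold.

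Levels were also compared between mice of one surgery. A test for differences between mice within a surgery group, added after the data were seen, called 0 of 31 subunit genes and 0.689% of all probe sets (1.13% of those with mean signal above background). The smallest adjusted p-values were 0.112 for Gria3, 0.114 for Gabra3, 0.126 for Glra2 and 0.152 for Grid1. Averaged over both hemispheres, Gria3 was 8.80 in MCAO mouse 6 and 9.45 in MCAO mouse 4, while the greatest side difference of an MCAO mouse was 0.22. Gabra3, an alpha subunit of cortical and brainstem neurons, was 7.01 in MCAO mouse 6 and 8.06 in MCAO mouse 2, a span of 1.05 log2 units, against at most 0.37 between the hemispheres of an MCAO mouse. With the 24 arrays 28 of 31 subunit genes and 80.4% of all probe sets were called in this test.

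The level of striatal markers also differed between mice. The mean of 7 genes of striatal medium spiny neurons was 8.81, 8.04, 8.84, 8.17, 9.58, 9.58 and 9.51 in MCAO mice 1, 2, 4, 5, 6, 7 and 8 and 9.08, 9.49 and 8.91 in sham mice 2, 3 and 4. In MCAO mouse 5 the ipsilateral hemisphere was higher by 0.89, and the other mice had side differences of -0.27 to 0.27. Mice 2 and 5 of the MCAO group were thus low and mice 6, 7 and 8 high. No source used here gives how much striatum each piece held.

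The slope of each subunit gene on this striatal level, over the 10 mice and with surgery in the fit, was called for 0 of 31 subunit genes and for 0.613% of all probe sets (limma, added after the data were seen). At an unadjusted p under 0.05, 7 of 31 subunit genes passed, against 8.34% of all probe sets. Gabra3 had the smallest p, with a slope of -0.46 ± 0.10 log2 units per log2 unit of striatal markers (SE, adjusted p = 0.0681). Glra2 had -0.46 ± 0.13 (SE, adjusted p = 0.228), Gabra5 -0.23 ± 0.08 (SE, adjusted p = 0.388) and Gria3 -0.28 ± 0.11 (SE, adjusted p = 0.468). Gabrd and Gabra4, the pair for tonic inhibition, had positive slopes of 0.28 ± 0.08 and 0.22 ± 0.09 (SE, adjusted p = 0.253 and 0.485), and Grik2 had 0.21 ± 0.10 (SE, adjusted p = 0.596). Grik5, at 0.15 ± 0.07 (SE, adjusted p = 0.638), did not pass the unadjusted threshold. For side differences in place of mouse means, 0 of 31 subunit genes were called, against 0.0045% of all probe sets, and 0 of 31 passed the unadjusted threshold, against 7.96%.

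The same slopes were fitted on each of the 10 other marker lists, also after the data were seen. They were called for 0 of 31 subunit genes and 0% of all probe sets on every one of these lists, and 0 to 5 of 31 subunit genes passed the unadjusted threshold, against 3.08% to 10% of all probe sets. Several genes named for striatal markers passed it on other lists too. Gabra4 and Grik2 had positive slopes on cerebellar markers, of 1.43 ± 0.57 and 1.66 ± 0.58 (SE, adjusted p = 0.836 and 0.731). Grik2 also had negative slopes on pan-neuronal, microglial and oligodendrocyte markers (adjusted p = 0.538, 0.590 and 0.609). Glra2 had a negative slope on astrocyte markers (adjusted p = 0.489). Gabra3 had slopes of 2.39 ± 0.81 on pan-neuronal, -1.91 ± 0.88 on cerebellar and -1.72 ± 0.73 on thalamic markers (SE, adjusted p = 0.538, 0.872 and 0.853). Only 2 of 9 cerebellar and 2 of 6 thalamic markers exceeded background on all 20 arrays, so the size of slopes on these 2 lists is poorly measured.

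**Figure D4:**
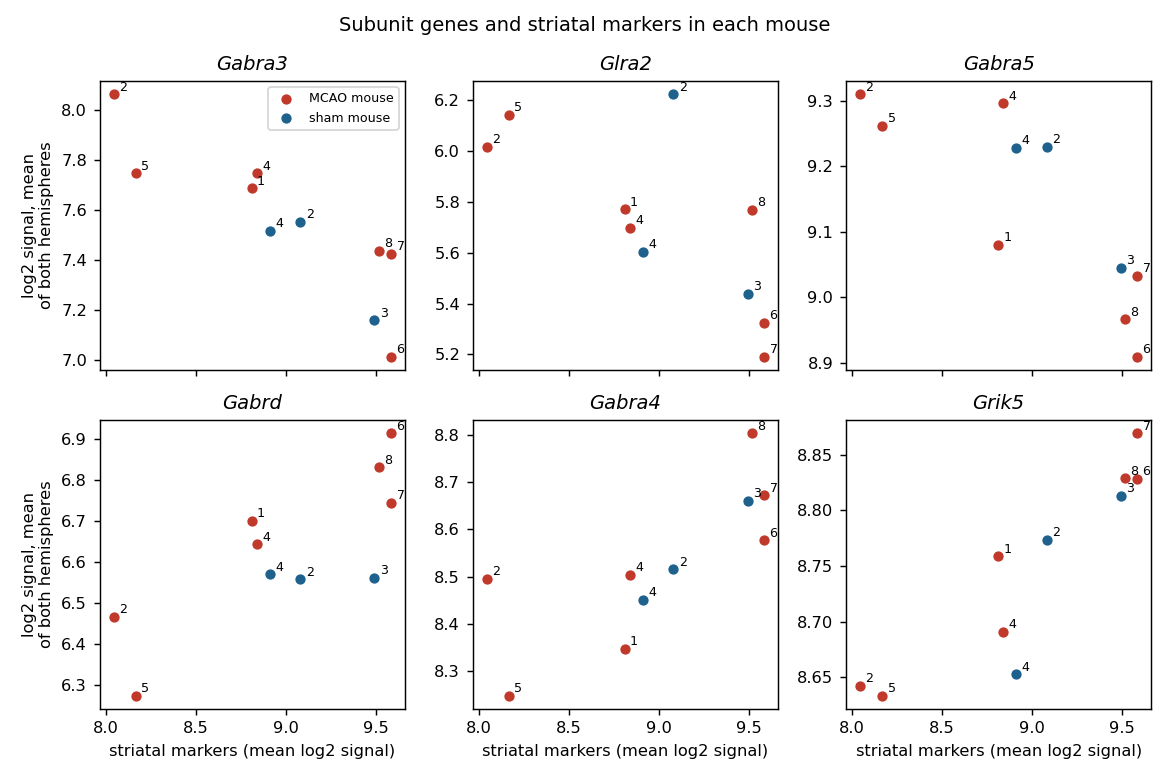
Mean log2 signal of both hemispheres (vertical axes) against the mean log2 signal of 7 striatal markers (horizontal axes) for 6 subunit genes, 1 numbered point per mouse, MCAO in red (n = 7) and sham in blue (n = 3). The 6 genes were chosen after their slopes were seen. Gria3 and Grik2, which passed the unadjusted threshold, are not shown, while Grik5, which did not pass it, is. The slopes of Gabra3, Glra2 and Gabra5 are negative and those of Gabrd, Gabra4 and Grik5 positive, and none passes the adjusted threshold.

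Several subunit genes are neighbours in the genome. By gene order in RefSeq, Gabrg1 and Gabra2 are adjacent on chromosome 5, as are Gabra4 and Gabrb1, with 1 protein-coding gene between Gabra2 and Gabra4. In the ipsilateral comparison of MCAO with sham mice, Gabra2, Gabra4 and Gabrb1 of this cluster had differences of 0.07, -0.03 and 0.13 log2 units, and Gabrg1 was below background. Gria2 and Glrb are adjacent on chromosome 3 and differed by 0.03 and 0.10, and Gabrg3 and Gabra5 are adjacent on chromosome 7 and differed by -0.14 and -0.09.

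Immediate early genes carry short sites for activity-regulated factors before their start, and the subunit promoters were searched for the same letters. RefSeq promoters (GRCm38.p6) were at hand for 22 of the 31 genes, 26 promoters in all, and the 250 bases before the start were read on both strands. None of the 26 held the cAMP response element TGACGTCA, its core TGACG, which is part of the longer site, the AP-1 site TGACTCA, the EGR site GCGTGGGCG or the E-box CACGTG. Among all 32851 promoters of the table these were present in 1.55%, 17.8%, 4.46%, 0.536% and 6.02%. A CArG box, the site of serum response factor, was found in 1 of the 26, that of Glra3, and in 1.47% of all promoters. A match is a run of letters and was not tested as a binding site, and no match says only that the letters are not in this window.

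The promoter of Glra3 is shown for that match, and those of Gabre and Gabrg1 because these genes had the smallest p-values of all subunit genes between the hemispheres of MCAO mice and between ipsilateral hemispheres. Capitals mark the CArG box, whose first letter is at position -122 from the start. The others hold none of the letters searched. They lie at chr8:55940168-55940417 on the plus strand (Glra3), chrX:72274722-72274971 on the minus strand (Gabre) and chr5:70842618-70842867 on the minus strand (Gabrg1), each written along the strand of its gene.
Glra3: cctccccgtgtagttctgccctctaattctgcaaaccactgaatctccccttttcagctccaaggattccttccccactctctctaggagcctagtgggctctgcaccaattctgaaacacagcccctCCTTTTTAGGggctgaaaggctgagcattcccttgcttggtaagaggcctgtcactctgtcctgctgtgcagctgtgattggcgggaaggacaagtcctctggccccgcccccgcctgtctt
Gabre: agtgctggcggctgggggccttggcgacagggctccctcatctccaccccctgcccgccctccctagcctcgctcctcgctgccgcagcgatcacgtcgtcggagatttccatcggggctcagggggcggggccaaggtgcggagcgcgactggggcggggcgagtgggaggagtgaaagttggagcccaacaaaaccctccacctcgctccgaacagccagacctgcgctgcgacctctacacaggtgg
Gabrg1: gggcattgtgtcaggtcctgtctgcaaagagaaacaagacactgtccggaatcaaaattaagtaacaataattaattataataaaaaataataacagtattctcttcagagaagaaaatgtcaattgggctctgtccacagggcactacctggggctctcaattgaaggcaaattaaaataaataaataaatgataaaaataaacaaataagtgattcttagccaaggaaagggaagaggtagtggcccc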

How the data were processed

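RNA of both hemispheres of 12 mice was measured on 24 Affymetrix arrays, prepared with the mirVana Paris and GeneChip WT Plus kits per the labels' protocols. The authors deposited log2 signals, and the submitters' processing notes name Expression Console as the tool. The sources used here give neither its version nor the normalization nor the genome build, and that the scale is log2 was read from the span of values. The rule for the members uses no measured value, but the members and gene lists were chosen with earlier results of these data known.

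From these log2 values, 6923 controls were left out and 22206 probe sets were tested, with no filter on signal. Arrays with a median correlation under 0.9, and the other hemisphere of that mouse, were left out, which removed 4 arrays. limma 3.58.1 in R 4.3.3 was run with mouse as a fixed block for side comparisons and with no block between mice, with Benjamini-Hochberg adjustment over all probe sets, 0.05 as the threshold and 95% intervals. Both hemispheres of a mouse come from 1 animal per the titles, and their deviations correlated at 0.112 to 0.307, against a median of -0.0425 for different mice. Each mouse is a separate animal per the labels.

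All found members are named. Signals are given for members past the threshold and, per class, for the member with the smallest p in each comparison except the side difference in sham mice. These signals are given by mouse for sham mice and as lowest, median and highest for MCAO mice. From each pathway list, genes past the threshold or else the 2 with the smallest p between the hemispheres of MCAO mice are named. Other genes given by value after seeing the data are those in the paragraphs on mice and striatal markers. The fits were first tested on simulated data. Figures used matplotlib 3.10.9 in Python 3.11.15.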

Additional observations from a re-analysis of the deposited data

Results flagged for a closer look

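Of 93 sets of 7 values examined (the levels of 31 subunit genes in each MCAO hemisphere group and their side differences), 4 held an end value far from the others, by a gap to its nearest neighbour that is wide against the whole range. Chance alone gives about 1 in 20 such sets.

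The side difference of Gabra3 was 0.367 in MCAO mouse 4, where the next highest was 0.0916 and the lowest -0.115. The ipsilateral signal of Gabrd was 6.27 in MCAO mouse 5, where the next was 6.64 and the highest 6.85. The striatal markers of that hemisphere averaged 8.61. In the contralateral hemisphere of the same mouse Gabrd was also 6.27, and striatal markers averaged 7.72. In MCAO mouse 2 Gabrd averaged 6.47 over both hemispheres and was higher by 0.370 ipsilaterally. Striatal markers of MCAO mouse 2 averaged 8.06 ipsilaterally and 8.03 contralaterally. The ipsilateral signal of Grin2a was 9.03 in MCAO mouse 1, where the next was 8.85 and the lowest 8.74. The contralateral signal of Grin3b was 3.63 in MCAO mouse 4, where the next was 4.02 and the highest 4.25, all below background. The cause of these values was not tested.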

How the results depend on the processing

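No subunit gene was called in any of the 5 comparisons under any alternative in which it was tested. Without dim probe sets, Grin2d, Grin3b, Gabra6, Gabrg1, Gabre and Glra1 were not tested. Fits without the mouse block or within a single surgery group gave no ipsilateral or contralateral comparison of MCAO with sham mice. The latter gave no interaction either. The smallest adjusted p was 0.133 (hemispheres of MCAO mice), 0.505 (of sham mice), 0.432 (interaction), 0.0668 (ipsilateral) and 0.971 (contralateral). Without the replicate block of mouse 0 of 31 were called, and 29, 0 and 0 probe sets in the first 3. Over all probe sets, 30 were called between the hemispheres of MCAO mice. This was 19 with all 24 arrays, 19 with MCAO mice alone, 84 with trend and robust settings, 66 without dim probe sets, 97 with array weights and 18 to 27 when single mice were left out. Leaving out single mice gave 0 or 1 in sham hemispheres (1 without sham mouse 3) and 0 to 8 for the interaction (8 without MCAO mouse 6), which was 5 with trend and robust settings and 2 without dim probe sets. The 33 ipsilateral calls were 1 with 24 arrays, 51 under a random mouse effect, 50 with trend and robust settings and 24 to 46 when single mice were left out. The contralateral count was 1 with trend and robust settings, without dim probe sets or with array weights.

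Between mice of one surgery, 0 subunit genes and 153 probe sets were called. These were 28 and 17851 with 24 arrays, 8 and 1668 with trend and robust settings, 4 and 789 without dim probe sets, 15 and 2860 with array weights, and 0 and 72 to 133 with single mice left out (72, 98 and 93 without MCAO mice 2, 5 and 7). Against striatal markers the count was 1 (Gabra3) with trend and robust settings or median centring, 28 with 24 arrays, and 0 without any single mouse or with MCAO mice alone. The causes were not tested. With 3 sham mice, intervals of comparisons with sham are wide, and for 8 subunit genes at background the size of a change is not measured.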
